A study of Mus musculus with 18 samples.

Results

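Brainstem of wild-type mice was compared with cerebral cortex of wild-type mice, gene by gene and gene family by gene family. The comparison used 3 brainstem and 3 cortex samples, 6 of the 18 samples of the series, and was defined by region and genotype alone. All mice were male and of strain 129SV, had no stress treatment according to the series title, and carried an intact Nfe2l2 gene, which encodes the transcription factor Nrf2. The other 12 samples were hippocampus of the same genotype and all 3 regions of Nrf2 knockout mice. Their age, and where the brainstem and cortex were cut from the rest of the brain, are not given in the sources used here. The design text speaks of independent RNAs, and it is not stated whether a brainstem and a cortex sample with the same number came from the same mouse. The p-values therefore measure the spread between samples of a group, estimated from all 18 samples of the series and not only these 6. Total RNA was amplified, labelled with Cy3 and hybridised to 1-colour Agilent arrays, 1 array per sample.

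A level below is the log2 of the deposited processed spot intensity minus the 75th percentile of its array, so that 0 is the level of that percentile. Levels of different genes come from different probes and are not comparable with each other. A difference is the mean level of the 3 brainstem arrays minus that of the 3 cortex arrays, on the log2 scale, with its standard error from the limma fit after ±. A gene was called higher or lower in brainstem at a Benjamini-Hochberg adjusted p under 0.05 over all 22671 genes tested. Where all 3 arrays of one region and 0 of the other had the gene well above background, only a lower bound of the fold is given. In whole tissue, more cells of a type and more RNA per cell cannot be told apart.

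The brainstem joins the forebrain to the spinal cord. It holds the motor and sensory nuclei of the cranial nerves, the serotonergic raphe nuclei, noradrenergic cell groups, the centres of breathing and circulation, and long tracts of myelinated axons. The cerebral cortex is a layered sheet of mostly glutamatergic pyramidal neurons with local GABA interneurons, whose identity is set by factors of the telencephalon. Hox genes encode homeodomain factors that give the hindbrain and spinal cord their position along the body axis, and the forebrain develops without them.

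The regional labels were checked against markers. The cortical markers Emx1, Tbr1, Neurod6 and Slc17a7 were well above background on all 3 cortex arrays and were all called lower in brainstem. Of the brainstem markers that could be tested, Hoxa5, Hoxb3, Hoxb5, Slc6a4, Tph2 and Dbh were well above background on all 3 brainstem arrays, and all were called higher there. Slc6a5 was not analysed here. The brainstem arrays also carried transcripts typical of the hypothalamus, thalamus, midbrain and cerebellum, and the cortex arrays carried striatal and choroid plexus transcripts, described with their values further on.

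The 6 arrays had 71.0% to 73.7% of their spots well above background and 0 saturated spots, and their number limits the precision. Levels correlated between arrays across probes with r from 0.986 to 0.993 within brainstem, 0.987 to 0.996 within cortex and 0.947 to 0.964 between the regions. Replicates 1 and 2 of brainstem lay on 1 slide and replicate 3 on another, likewise for cortex. No slide held both regions, so slide and region cannot be told apart. Brainstem replicate 3 stood apart for choroid plexus genes. For instance, the level of Ttr, the transthyretin made by the choroid plexus, was -4.57, -5.03 and 0.03 in brainstem and 0.15, 1.43 and 1.42 in cortex.

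Of the 22671 genes tested, 4316 (19.0%) were called higher and 3772 (16.6%) lower in brainstem. With a difference of at least 2-fold as well, 1475 genes (6.51%) were higher and 1446 (6.38%) lower. The median difference of all genes tested was 0.03. The levels of 11786 genes, 52.1% of those tested, did not overlap between the 3 arrays of each region, whether called or not. Above background on all 3 brainstem arrays and on 0 cortex arrays were 220 of the genes called higher, and 136 of the genes called lower showed the opposite pattern. Among named genes above background on all 6 arrays, 43 were called with an at least 8-fold higher level and 71 with an at least 8-fold lower level.

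**Figure D1:**
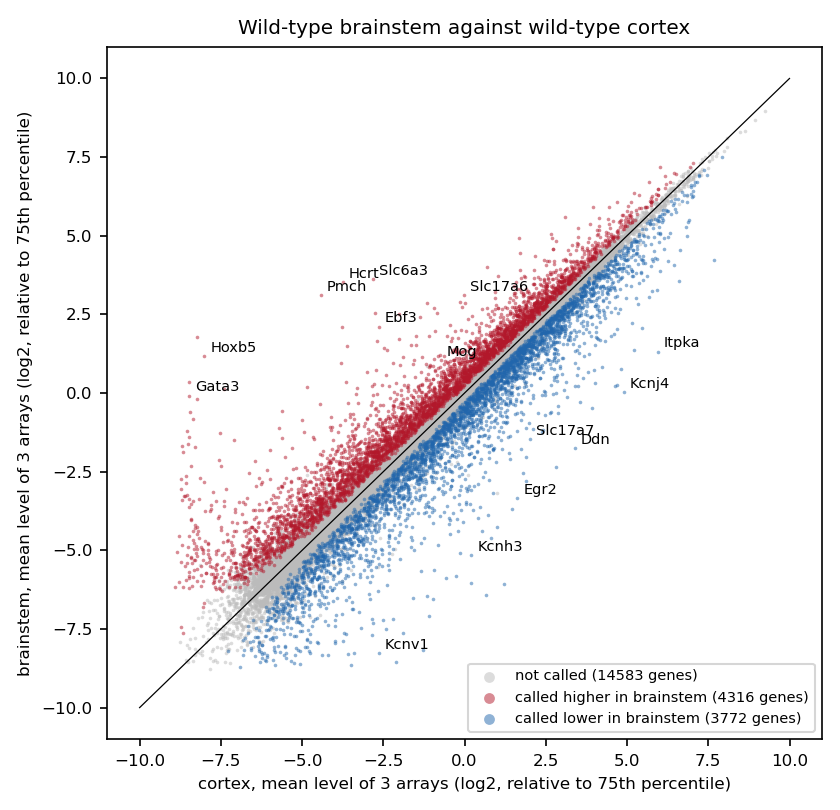
Mean level of each tested gene in the 3 wild-type cortex arrays (x axis) and the 3 wild-type brainstem arrays (y axis), both as log2 relative to the 75th percentile of the array. Red points are the 4316 genes called higher and blue points the 3772 called lower in brainstem, grey points were not called, and the line marks equal levels. Hoxb5 and Gata3 lie near background in cortex, while Pmch, Hcrt and Slc6a3 are the highest points above the line among named genes measured in both regions.

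Gene lists by function were then read against these shares. The 36 lists named 993 genes, of which 950 were on the array and 890 were tested. Where 0 members of a list were called in a direction by limma, the number past an unadjusted p of 0.05 in that direction was between 0 and 1 per list.

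**Figure D2:**
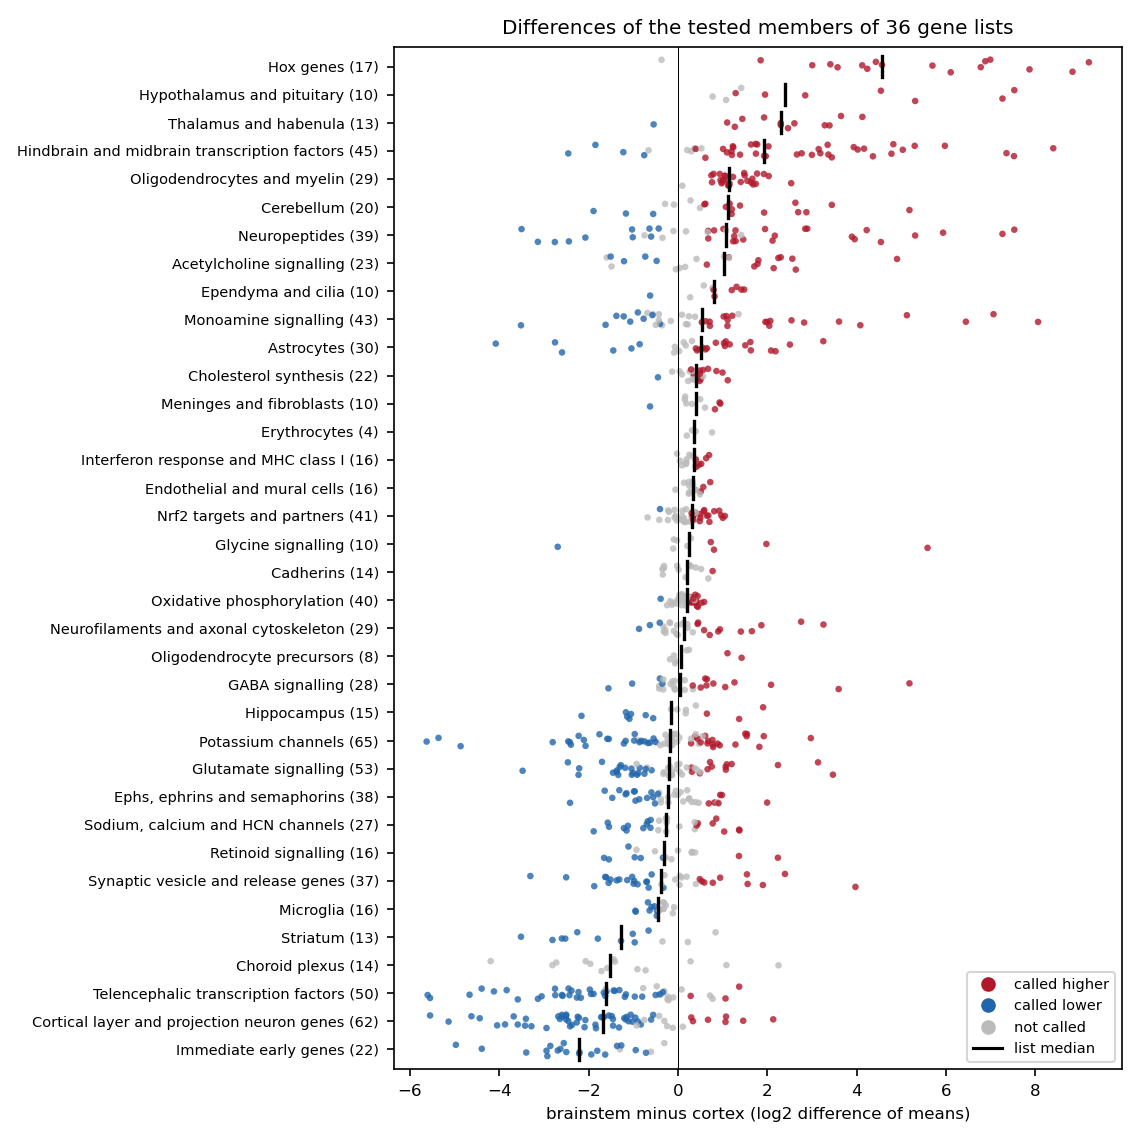
Difference between brainstem and cortex (x axis, log2) of every tested member of the 36 gene lists, with the number tested after each name. Points are genes, red when called higher, blue when called lower and grey when not called, and black bars are list medians. Medians run from -2.21 for immediate early genes to 4.57 for Hox genes, a fitted value that is 3.36 with the 15 genes undetected in cortex at their lower bound.

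Hox genes were high in brainstem and near or below background in cortex. Of 39 Hox genes listed, 36 were on the array and 17 could be tested, which took detection on every array of some group. 16 of the 17 were called higher and 0 lower, where 19.0% and 16.6% of all genes were. In 15 of the 17, 0 cortex arrays were above background, so the fitted median difference of 4.57 rests on cortex values near background. It was 3.36 with those genes at their lower bound, 1.06 with normexp background correction and 0.74 over the 2 genes detected on all 6 arrays. Members that passed only through their brainstem level had to differ, so the count describes those measured and not the family. The level of Hoxb5 was 1.27, 1.18 and 1.09 in brainstem and -8.68, -7.48 and -7.90 in cortex, where it was not well above background on any array, which makes it at least 222-fold higher in brainstem (limma adjusted p = 3.77e-09). Within the HoxB cluster, the bound was at least 126-fold for Hoxb6, at least 65.3-fold for Hoxb2, at least 26.9-fold for Hoxb7, at least 10.3-fold for Hoxb3 and at least 7.37-fold for Hoxb4. In the HoxA cluster the bound was at least 32-fold for Hoxa4, at least 30.5-fold for Hoxa5, at least 12-fold for Hoxa2 and at least 3.39-fold for Hoxa9. The bound was at least 19.7-fold for Hoxd4, at least 4.04-fold for Hoxd1 and at least 2.47-fold for Hoxd3 in the HoxD cluster, and 6.18-fold for Hoxc5, the only HoxC member tested. With normexp background correction, Hoxa9 (0.39) and Hoxd3 (0.16) were not called.

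Hoxa7 and Hoxa3 were the exceptions. Hoxa7 was measured on all 6 arrays, with levels of -2.14, -3.16 and -2.88 in brainstem and -5.33, -3.02 and -5.39 in cortex, so that cortex replicate 2 lay among the brainstem arrays, and its difference was 1.85 ± 0.54. The level of Hoxa3 was -4.12, -3.81 and -3.38 in brainstem and -3.61, -3.49 and -3.10 in cortex. These groups overlapped, and the difference of -0.37 ± 0.24 was not called (adjusted p = 0.25). With the mean of its probes in place of the brightest, Hoxa3 was called higher, at 1.27. Hoxa6, Hoxa10, Hoxa11, Hoxa13, Hoxb1, Hoxb8, Hoxb9, Hoxb13, 5 HoxC members and 6 HoxD members were on the array and not well above background on all arrays of any group. No regional value is given for them. With an array left out, the call was lost for Hoxa7 without brainstem replicate 1 or cortex replicates 1 or 3 (difference 1.45 to 1.56).

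Transcription factors that pattern the hindbrain and midbrain or specify their neurons were mostly higher in brainstem. 36 of 45 tested members were called higher and 4 lower, with a median difference of 1.93. It was 1.74 with the 14 members undetected in cortex at their lower bound, 0.58 with normexp and 1.20 over members detected on all 6 arrays. Those 14 passed the filter with 0 cortex arrays detected and had to differ. Gata3, a zinc finger factor of serotonergic and inhibitory brainstem neurons, had levels of -0.01, -0.13 and -0.11 in brainstem and was not well above background in cortex. It was at least 92.8-fold higher. Among factors of midbrain dopaminergic and serotonergic lineages, the bound was at least 42.8-fold for Foxa2, a forkhead factor of the floor plate and of dopaminergic neurons. In the same role the difference was 3.45 for En2, 1.97 for Fev (above background on 2 of 3 cortex arrays), 1.75 for Pitx3 and 1.20 for Gata2, where Fev marks serotonergic and Pitx3 dopaminergic neurons. Nr4a2, which is needed by midbrain dopaminergic neurons and is also a marker of deep cortical cells and the claustrum, went the other way, with levels of -0.03, 0.20 and 0.16 in brainstem and 1.92, 2.11 and 1.84 in cortex and a difference of -1.85 ± 0.21.

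Iroquois and LIM homeobox genes had some of the largest differences. Irx2 was at least 106-fold higher and Irx5 at least 9.57-fold, with no cortex array above background. The level of Irx1 was 1.42, 1.82 and 1.74 in brainstem and -2.65, -2.82 and -2.65 in cortex, a difference of 4.37 ± 0.23. Lhx1, a LIM factor of hindbrain and cerebellar neurons, had levels of -0.48, -0.48 and -0.77 in brainstem and -5.67, -5.58 and -5.59 in cortex and a difference of 5.03 ± 0.23, the value for Lhx5 being 4.78 ± 0.47. For Lhx1, Lhx5 and Irx1 the brainstem and cortex arrays were separated by more than 3 log2 units on every array. The tested determinants of visceral and noradrenergic neurons were above background in brainstem only, with bounds of at least 4.74-fold for Phox2a, at least 2.5-fold for Tlx1 and at least 1.53-fold for Tlx3. The paired box genes Pax7, Pax8 and Pax3 were likewise at least 7.28, 2.6 and 4.19-fold higher. Zic genes, zinc finger factors of the dorsal midline and cerebellum, were higher too, with differences of 1.93 for Zic1, 1.39 for Zic4 and 0.62 for Zic2. With normexp background correction, Tlx1 (0.28), Tlx3 (0.08), Pax8 (0.175) and Zic2 (0.06) were not called. The members called lower included -2.45 for Prdm8, -1.85 for Nr4a2 and -0.75 for Meis2, which are also known from the telencephalon. Leaving out an array ended the call of Zic4 without brainstem replicate 3 or cortex replicate 1 (difference 1.19 to 1.27), Zic2 without brainstem replicates 1 or 2 or cortex replicate 1 (difference 0.54 to 0.57) and Meis2 without brainstem replicate 1 or cortex replicate 3 (difference -0.71 to -0.63).

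**Figure D3:**
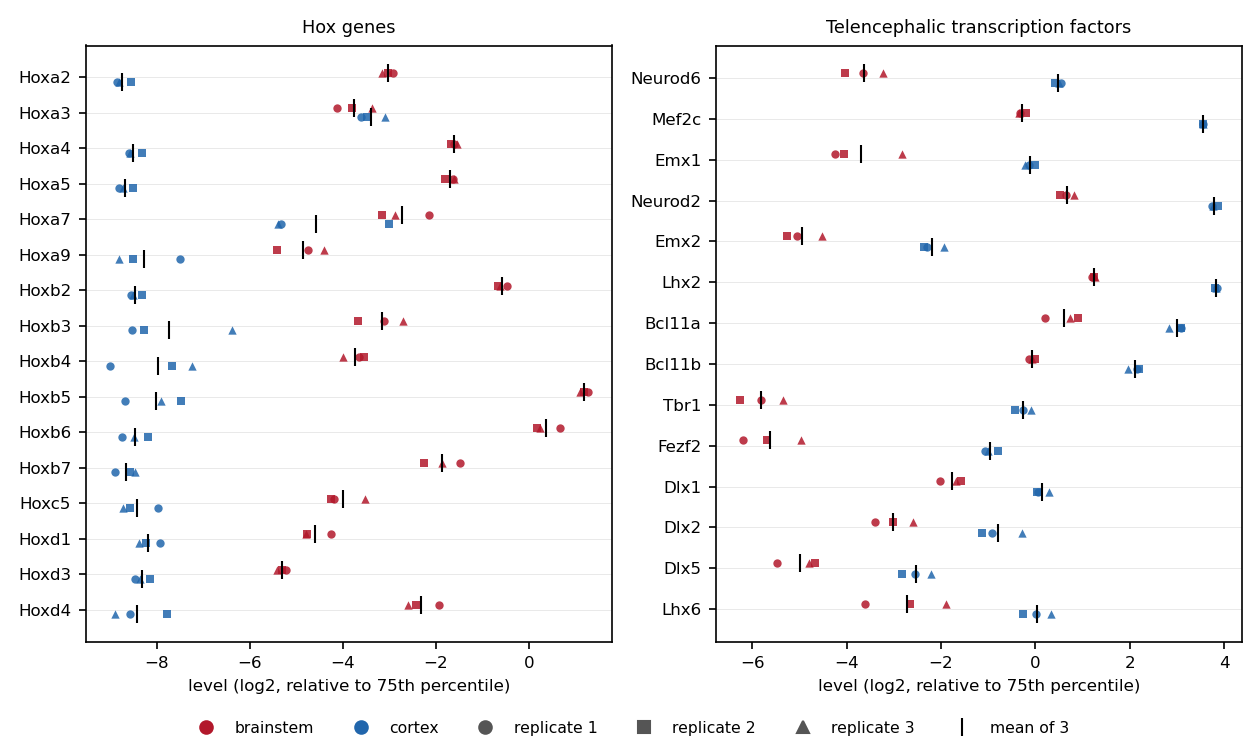
Levels (x axis, log2 relative to the 75th percentile of the array) of 16 of the 17 tested Hox genes and of 14 telencephalic transcription factors on each wild-type array, brainstem in red and cortex in blue, with a symbol per replicate and a black tick at the mean of 3. All Hox genes shown but Hoxa3 and Hoxa7 have separate groups, and every telencephalic factor shown lies lower in brainstem.

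Telencephalic transcription factors showed the opposite pattern. 3 of 50 tested members were called higher and 35 lower, with a median difference of -1.61, which was -1.03 with normexp. Neurod6, a proneural factor of pyramidal neurons, had levels of -3.64, -4.03 and -3.22 in brainstem and 0.54, 0.42 and 0.50 in cortex and was 17.4-fold lower in brainstem (-4.12 ± 0.22, adjusted p = 3.78e-09). Tbr1, a T-box factor of deep-layer neurons, and Fezf2, which directs subcerebral projection neurons, were among the lowest of the list. Their differences were -5.55 for Tbr1 (above background on 1 of 3 brainstem arrays) and -4.66 for Fezf2 (above background on 2 of 3 brainstem arrays). The proneural factors and homeobox genes of the pallium followed, with -4.12 for Neurod6, -3.13 for Neurod2, -3.58 for Emx1, -2.75 for Emx2 and -2.59 for Lhx2. The difference was -3.83 for Mef2c, -2.38 for Bcl11a, -2.17 for Bcl11b and -2.26 for Lmo4, where Bcl11b controls corticospinal neurons. Brainstem replicate 3 was the highest brainstem array for Emx1, Emx2, Neurod6, Tbr1 and Fezf2. Without it the list median was -1.57.

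Factors of the ventral telencephalon, from which cortical interneurons and the striatum arise, were lower as well. Of 15 tested, 10 were called lower and 2 higher. The difference was -2.74 for Lhx6, -2.58 for Sp8, -2.45 for Dlx5, -2.22 for Dlx2, -1.95 for Lhx8, -1.89 for Dlx1 and -1.31 for Dlx6. Lhx6, the LIM factor of interneurons from the medial ganglionic eminence, had levels of -3.61, -2.66 and -1.89 in brainstem and 0.01, -0.27 and 0.33 in cortex. Prox1, at 1.37 ± 0.28, and Npas1, at 0.29 ± 0.10, were the members of this role called higher, and Foxp2, at 1.07 ± 0.35, the only pallial factor. Pallial factors that were not called included -0.21 for Cux1, -0.22 for Pou3f2, -0.23 for Pou3f3, -0.30 for Rorb, -0.37 for Tle4 and 0.72 for Nr2f2. The call did not hold for Lhx8 without brainstem replicate 1 or cortex replicates 1, 2 or 3 (difference -2.09 to -1.18), Npas1 without brainstem replicates 1 or 3 or cortex replicates 2 or 3 (difference 0.22 to 0.28) and Foxp2 without any one of the 6 arrays (difference 1.04 to 1.08). With the replicate number as a block, Lhx8 was not called (limma adjusted p = 0.0722).

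Genes of pyramidal neuron signalling were lower in brainstem nearly throughout. Of 34 tested, 32 were called lower and 0 higher, with a median of -2.44. The level of Ddn, the postsynaptic protein dendrin, was -1.91, -2.21 and -1.11 in brainstem and 3.29, 3.44 and 3.44 in cortex, and its difference was -5.13 ± 0.28. Itpka, a kinase of inositol trisphosphate in dendritic spines, had levels of 1.14, 0.81 and 2.005 in brainstem and 5.88, 5.90 and 6.05 in cortex and a difference of -4.62 ± 0.32. For Kalrn, a guanine exchange factor of spines, the levels were 0.15, 0.19 and 0.44 in brainstem and 4.78, 4.71 and 4.59 in cortex, and its difference was -4.44 ± 0.10. These 3 genes had no overlap between the regions. Postsynaptic calcium signalling moved with them: the difference was -3.40 for Camk2a, -3.42 for Nrgn, -1.69 for Camk4, -1.45 for Camk2n1 and -1.66 for Camkv, where Camk2a is the alpha subunit of calmodulin kinase and Nrgn, neurogranin, binds calmodulin. A further probe of Camk2a gave 0.08. Grm2, at -0.92 ± 0.39, and Sstr3, at -0.42 ± 0.25, with the gene above background on 1 of 3 brainstem arrays, were not called. At an unadjusted p under 0.05, 33 members were lower and 0 higher. In the fit blocked by replicate number, Grm2 was called (limma adjusted p = 0.00118).

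Layer markers of cortex were less uniform. Of 28 tested, 16 were called lower and 7 higher. The lowest were -3.68 for Crym, -2.50 for Cplx3, -2.45 for Kcnip2, -2.41 for Plxnd1 and -2.21 for Rprm. Crym, the thyroid hormone binding crystallin mu, had levels of 0.23, -0.77 and 1.52 in brainstem and 3.82, 4.02 and 4.16 in cortex, with no overlap. The largest of those called higher were 2.13 for Nxph4, 1.46 for Cartpt, 1.08 for Ngb, 1.07 for Foxp2 and 0.67 for Deptor. Cartpt encodes a peptide that also occurs in brainstem and hypothalamus.

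Among all named genes above background on all 6 arrays, the 12 lowest in brainstem were Kcnh3, Mei1, Dkkl1, Cd6, Ddn, Egr2, Slc23a3, Kcnj4, Hkdc1, Itpka, Ankrd33b and Kalrn. Kcnh3, a voltage-gated potassium channel of the ether-a-go-go family, had levels of -5.45, -5.20 and -4.84 in brainstem and 0.21, 0.34 and 0.04 in cortex and was 41-fold lower (-5.36 ± 0.22). Kcnj4, an inward rectifier of cortical and striatal neurons, had levels of -0.15, -0.05 and 0.28 in brainstem and 4.94, 5.07 and 4.67 in cortex and was 29.1-fold lower. Among the others, Mei1 is known from meiosis, Cd6 as a receptor of T cells and Dkkl1 as a secreted protein of testis. Their differences were -5.27 for Mei1, -5.18 for Dkkl1, -5.17 for Cd6, -4.94 for Slc23a3, -4.69 for Hkdc1 and -4.60 for Ankrd33b, and on each of these the 3 cortex arrays lay apart from the 3 brainstem arrays. Among named genes measured only in cortex, the largest bounds were at least 41.8-fold for S100a5, at least 16.6-fold for Pbp2, at least 15.5-fold for Ntn5, at least 14.2-fold for Kcnv1 and at least 12.6-fold for Ankrd63. S100a5, a calcium-binding protein of olfactory neurons, varied between cortex arrays, with levels of -1.29, -2.08 and 0.11. The next bounds were at least 12.2-fold for Sh3rf2, at least 11.1-fold for Cldn22, at least 9.77-fold for Adamts13, at least 8.44-fold for Itprid1 and at least 7.91-fold for Helt.

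At the other end, the 12 largest positive differences were those of Pmch, Hcrt, Slc6a3, Oxt, Slc18a2, Lhx1, Lhx9, Lhx5, Ebf3, Dmbx1, Avp and Irx1. The level of Pmch, which encodes melanin-concentrating hormone of the lateral hypothalamus, was 3.11, 3.08 and 3.12 in brainstem and -4.54, -4.37 and -4.37 in cortex, a 185-fold higher level. Hcrt, the orexin precursor made in the same area, had levels of 3.62, 3.56 and 3.36 in brainstem and -3.66, -3.54 and -4.05 in cortex and was 154-fold higher. Slc6a3, the dopamine transporter of midbrain neurons, had levels of 3.70, 3.71 and 3.50 in brainstem and -2.95, -2.71 and -2.77 in cortex, a 87.2-fold difference. Transcription factors of the diencephalon and midbrain were also in this group. The difference was 5.03 ± 0.19 for Lhx9, a LIM factor of thalamus and midbrain, 4.76 ± 0.27 for Ebf3 and 4.61 ± 0.23 for Dmbx1. Beyond the Hox genes, Gata3, Irx2 and Foxa2, the largest bounds were at least 86.4-fold for Slc6a4, at least 55.1-fold for Uts2, at least 40.7-fold for Foxb1 and at least 37.1-fold for Slc6a2. Uts2 encodes urotensin, a peptide of brainstem and spinal motor neurons, and Foxb1 marks the mammillary region and parts of the brainstem.

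Immediate early genes, which are transcribed within minutes of neuronal firing, were lower in brainstem. 19 of 22 members were called lower and 0 higher, and the median difference of -2.21 was the lowest of the 36 lists. The mean level of the list ranged from -1.42 to -0.97 in the brainstem arrays and 0.73 to 1.24 in the cortex arrays. Regulatory sequence is shown for Egr2, Egr4, Npas4 and Nr4a1, members that differed together, since binding sites of activity-dependent factors near their starts are the textbook basis of the class. The windows run from 250 bases before to 50 bases after a RefSeq transcription start of GRCm38.p6, 5′ to 3′ on the strand of the gene. Capitals mark TGACG, the shared part of cAMP response elements, on either strand, and the CArG box, the site of serum response factor. For Egr2, 1 of 5 annotated starts is shown.
Egr2, chr10:67537680-67537979, plus strand: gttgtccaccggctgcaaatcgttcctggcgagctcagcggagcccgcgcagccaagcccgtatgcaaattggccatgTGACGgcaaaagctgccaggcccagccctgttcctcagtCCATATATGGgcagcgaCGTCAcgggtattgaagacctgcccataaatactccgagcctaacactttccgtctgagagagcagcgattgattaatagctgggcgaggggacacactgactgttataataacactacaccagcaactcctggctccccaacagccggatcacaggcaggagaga
Egr4, chr6:85513540-85513839, minus strand: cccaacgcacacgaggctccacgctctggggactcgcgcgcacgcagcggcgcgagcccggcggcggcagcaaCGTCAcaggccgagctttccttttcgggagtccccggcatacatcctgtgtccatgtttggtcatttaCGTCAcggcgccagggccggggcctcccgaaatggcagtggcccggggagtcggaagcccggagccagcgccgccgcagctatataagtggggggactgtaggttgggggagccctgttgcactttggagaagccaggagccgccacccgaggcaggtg
Npas4, chr19:4989922-4990221, minus strand: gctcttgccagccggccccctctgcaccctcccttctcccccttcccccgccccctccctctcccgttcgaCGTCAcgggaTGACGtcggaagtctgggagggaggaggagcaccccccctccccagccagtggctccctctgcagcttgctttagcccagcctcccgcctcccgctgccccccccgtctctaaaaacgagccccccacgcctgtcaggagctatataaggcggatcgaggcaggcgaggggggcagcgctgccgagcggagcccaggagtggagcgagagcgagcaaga
Nr4a1, chr15:101266596-101266895, plus strand: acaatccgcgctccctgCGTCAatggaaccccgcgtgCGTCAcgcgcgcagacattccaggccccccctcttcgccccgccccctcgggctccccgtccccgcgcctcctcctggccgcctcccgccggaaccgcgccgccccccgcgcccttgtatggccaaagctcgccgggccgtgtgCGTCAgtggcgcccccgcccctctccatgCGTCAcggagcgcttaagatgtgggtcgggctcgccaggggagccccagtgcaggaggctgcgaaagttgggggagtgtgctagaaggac

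The motifs searched, on both strands, were TGACG, TGACGTCA, which contains it, TATAAA, and the CArG box by name. RefSeq windows were at hand for 17 of the 22 genes, with 28 starts. TGACG occurred in 53.6% of these windows, in 28.5% of the windows of all tested genes and in 20.8% of all 32851 windows. In windows of all genes called at least 2-fold lower it occurred in 21.5%. The CArG box occurred in 14.3% of the windows of the list, all of them starts of Egr2, and in 1.63% of all windows. Some Egr2 windows overlap and hold the same CArG box and TGACG sites, which are counted in each. The windows of Fosl2, Jun, Ier5 and Dusp6 held no TGACG, unlike the 4 genes shown. The full TGACGTCA was in 7.14% and TATAAA also in 7.14%, against 2.8% and 8.5% of the windows of tested genes and 1.79% and 13.6% of all windows. The CArG box was in 1.37% of the windows of tested genes. A match is a description of the letters only.

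The levels behind these genes were clearly separate. Egr2, a zinc finger factor, had levels of -4.12, -2.66 and -3.26 in brainstem and 0.98, 2.07 and 1.83 in cortex and a difference of -4.97 ± 0.58 (adjusted p = 9.51e-06). The level of Egr4 was -1.08, -0.17 and -0.18 in brainstem and 3.40, 4.17 and 4.17 in cortex, and for Npas4, a factor induced by calcium influx, it was -2.83, -2.73 and -3.29 in brainstem and -0.28, 0.26 and -0.28 in cortex. Nr4a1, an orphan nuclear receptor, had levels of 2.69, 3.41 and 3.06 in brainstem and 5.50, 5.92 and 5.62 in cortex. In each of these the groups did not overlap, and replicate 1 was the lowest array of its region for Egr2, Egr4 and Nr4a1. Effectors followed: the difference was -2.92 for Arc, -2.21 for Homer1, -1.36 for Nptx2, -0.71 for Bdnf and -1.63 for Dusp6, where Arc and Homer1 act at the postsynapse and Bdnf is a neurotrophin. Fos-family and Jun-family factors were uneven, with -2.55 for Fosb, -2.50 for Junb and -1.94 for Fosl2 called and -1.30 for Fos and -0.30 for Jun not called. The difference was -2.94 for Egr3 (above background on 1 of 3 brainstem arrays) and -3.39 for Ptgs2 (above background on 1 of 3 brainstem arrays). Nr4a3 was not above background on any of the 6 arrays. Under the replicate block, Fos and Jun were called (limma adjusted p = 0.000221 and 0.0412).

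Glutamatergic genes split by subtype and not by direction. 13 of 53 tested members were called higher and 21 lower, where 19.0% and 16.6% of all genes were. The vesicular transporter Slc17a7 (VGLUT1), used by cortical pyramidal neurons, had levels of -1.37, -1.71 and -1.35 in brainstem and 1.97, 1.99 and 2.04 in cortex and was 11.1-fold lower in brainstem. Slc17a6 (VGLUT2), used by thalamic and brainstem neurons, had levels of 3.06, 3.07 and 3.24 in brainstem and 0.18, -0.27 and 0.05 in cortex and was 8.8-fold higher. Slc17a8 (VGLUT3), found in serotonergic and other neurons that co-release glutamate, differed by 2.24 ± 0.28. The 3 vesicular transporters thus split into 1 lower and 2 higher in brainstem, with no overlap between arrays.

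AMPA receptor subunits and their partners were mostly lower. Of 13 tested, 9 were called lower and 1 higher. The difference was -1.30 for Gria3, -1.18 for Gria2 and -0.59 for Gria1, while Gria4 was not called (0.51 ± 0.23). Auxiliary subunits gave -2.46 for Cacng3, -1.70 for Gsg1l, -1.45 for Cnih3, -1.34 for Cnih2 and -0.92 for Cacng8, and Cacng5 was higher by 0.76 ± 0.15. Among NMDA receptor subunits, -2.22 for Grin2b and -1.37 for Grin2a were called lower, and -0.20 for Grin1, -0.18 for Grin2c and -0.14 for Grin2d were not called, where Grin1 is the obligatory subunit. Grin3b, a subunit of motor neurons, had levels of 0.88, 0.75 and 0.60 in brainstem and -2.56, -2.70 and -2.92 in cortex and was 11.1-fold higher. Kainate and delta receptors were mostly uncalled, with -1.37 for Grik5 and -1.28 for Neto1 among those called lower. Metabotropic receptors divided, with -1.004 for Grm5 and -0.89 for Grm3 on one side and 1.07 for Grm4 on the other. The astrocytic uptake transporters Slc1a3 and Slc1a2 were lower, with differences of -1.04 ± 0.15 and -0.86 ± 0.21.

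GABA synthesis differed little and its uptake and breakdown more. The difference of the synthesising enzymes was -0.16 for Gad1 and 0.34 for Gad2, neither called. The vesicular transporter Slc32a1, shared by GABA and glycine neurons, was higher by 0.51 ± 0.11. Slc6a11, a GABA transporter of astrocytes, had levels of 2.92, 3.33 and 2.85 in brainstem and 0.97, 1.02 and 0.85 in cortex and was 4.24-fold higher, followed by 1.27 for Slc6a12, 0.79 for Abat and 0.65 for Aldh5a1. Receptor subunits went both ways. Gabra6, a subunit of cerebellar granule cells, was bounded at 13.8-fold and Gabrq, found in monoaminergic neurons, at 3.27-fold, and Gabrg1 was higher by 0.64 ± 0.16. With normexp background correction, Gabrq (0.32) was not called. Among those called lower was -1.56 for Gabrd, while 0.15 for Gabra2, -0.42 for Gabra3, -0.33 for Gabra4 and -0.12 for Gabrb2 were not called. With the replicate number as a block, Gad2 was called (limma adjusted p = 0.025).

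Glycine, the second fast inhibitory transmitter of brainstem and spinal cord, left a clear trace in its receptor and transporter. Glra1, the adult receptor subunit, had levels of -1.51, -1.33 and -1.68 in brainstem and -6.98, -5.50 and -8.80 in cortex and a difference of 5.59 ± 0.72, with the gene above background on 1 of 3 cortex arrays. The glial transporter Slc6a9 had levels of 6.04, 5.87 and 5.86 in brainstem and 4.08, 3.73 and 4.02 in cortex and was 3.94-fold higher. Glra2 was higher by 0.81 ± 0.19, whereas the beta subunit Glrb (0.29 ± 0.14) and the anchor Gphn (-0.02 ± 0.14) were not called. Gldc, the glycine decarboxylase of astrocytes, was lower, with levels of -2.08, -1.67 and -1.66 in brainstem and 0.71, 0.93 and 1.01 in cortex.

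Of 4 tested genes of acetylcholine synthesis, transport and breakdown, 3 were called higher, and of 14 nicotinic subunits 7 were called higher and 3 lower. Of all genes, 19.0% and 16.6% were. In the whole acetylcholine list, 4 of 23 tested members were detected on all brainstem arrays and 0 cortex arrays. Those 4 passed the filter without cortex, so the counts describe the members measured. The choline transporter Slc5a7 had levels of -0.44, -0.59 and -0.53 in brainstem and -2.67, -2.91 and -2.73 in cortex and a difference of 2.25 ± 0.29. The difference was 1.80 for Slc18a3 (above background on 2 of 3 cortex arrays) and 1.71 for Ache, where Slc18a3 is the vesicular acetylcholine transporter. Chat, the synthesising enzyme, was above background on 3 brainstem and 0 cortex arrays but was not called (adjusted p = 0.0715). Nicotinic subunits of habenula, interpeduncular and midbrain neurons were measured in brainstem only, with bounds of at least 9.01-fold for Chrna6, at least 1.59-fold for Chrna3 and at least 1.34-fold for Chrnb4, and the difference was 2.56 for Chrna4, 1.78 for Chrnb3 and 0.65 for Chrnb2. Chrna7, at -1.21 ± 0.16, was lower. Of the muscarinic receptors, Chrm3 was lower (-1.51 ± 0.20) and Chrm2, the form of motor and cholinergic neurons, higher (2.14 ± 0.47, with the gene above background on 1 of 3 cortex arrays). With normexp background correction, Chrna3 (0.08), Chrnb4 (0.02) and Chrm2 (0.27) were not called.

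Genes of monoamine synthesis and transport were among the largest differences of the comparison. Of 11 tested genes of synthesis, 8 were called higher, and of 9 of transport and breakdown 8, where 19.0% of all genes were. In the whole monoamine list, 3 of 43 tested members were detected on all arrays of 1 region and 0 of the other, among them Slc6a4 and Slc6a2. Such members passed the filter without the other region and had to differ, so the counts describe the members measured. Tph2, the rate-limiting enzyme of brain serotonin, had levels of -0.71, -0.32 and -0.04 in brainstem and -4.71, -4.16 and -4.45 in cortex and a 16.9-fold higher level in brainstem. The serotonin transporter Slc6a4 was at least 86.4-fold higher, with brainstem levels of -0.25, -0.23 and -0.07. Dbh, which makes noradrenaline, had levels of -2.15, -2.73 and -2.51 in brainstem and -5.86, -5.89 and -6.45 in cortex, and the noradrenaline transporter Slc6a2 was at least 37.1-fold higher. Neither transporter was well above background on any cortex array, and the cell bodies of both kinds of neuron lie in the brainstem. For dopamine, Th differed by 2.54 ± 0.42 and Slc6a3 by 6.45 ± 0.41, and the vesicular transporter of all monoamine neurons, Slc18a2, by 5.13 ± 0.37. The shared enzymes and cofactor genes gave 2.83 for Ddc, 2.05 for Hdc, 1.997 for Gch1, 1.11 for Qdpr and 0.72 for Spr, where Hdc makes histamine in the posterior hypothalamus. The breakdown enzymes Maoa and Maob were higher by 0.62 ± 0.13 and 0.53 ± 0.19. Pnmt, the enzyme of adrenaline synthesis, was the exception, with a difference of -0.90 ± 0.25. With an array left out, the call was lost for Maob without any one of the 6 arrays (difference 0.48 to 0.58) and Pnmt without brainstem replicate 1 (difference -0.59). In the fit blocked by replicate number, Maob was not called (limma adjusted p = 0.0527).

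Monoamine receptors differed by transmitter. Of 13 dopamine, adrenergic and histamine receptors tested, 7 were called lower and 2 higher. The level of Drd1, the dopamine receptor of striatum and cortex, was -4.10, -3.22 and -3.08 in brainstem and 0.11, -0.02 and 0.06 in cortex. The difference was -1.62 for Adrb1, -1.38 for Drd4, -1.07 for Adra2c and -0.77 for Hrh3 among receptors called lower and 1.02 for Drd5 and 0.71 for Adra2a among those called higher, where a further Adra2a probe gave -0.53. Drd2 was not called (0.22 ± 0.17). Of 10 serotonin receptors, 3 were called higher, with 2.07 for Htr5b, 1.22 for Htr7 and 1.11 for Htr2c (above background on 2 of 3 brainstem arrays), and 1 lower, Htr6 (-1.21 ± 0.18), and Htr1a, the autoreceptor of raphe neurons that is also found in cortex, was not called (0.18 ± 0.17).

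**Figure D4:**
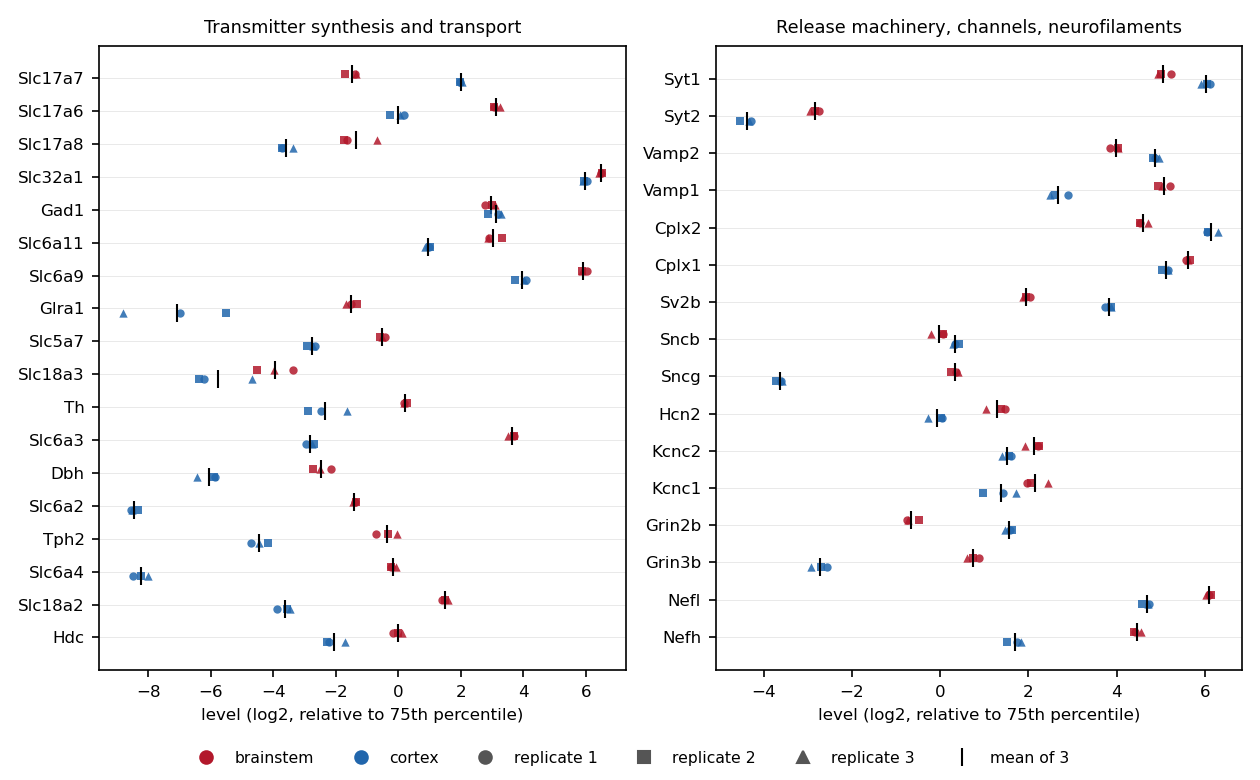
Levels (x axis, log2 relative to the 75th percentile of the array) of genes of transmitter synthesis and transport and of release machinery, channels and neurofilaments on each wild-type array, brainstem in red and cortex in blue, with a symbol per replicate and a black tick at the mean of 3. Slc17a7, Vamp2, Syt1, Cplx2, Sv2b and Grin2b lie lower in brainstem, and Slc17a6, Vamp1, Syt2, Sncg and the monoamine genes lie higher.

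Neuropeptide genes divided by the neurons that make them. All 5 peptides of cortical interneurons that were called were lower: -3.50 for Cort, -3.13 for Vip, -2.75 for Npy, -2.07 for Cck and -1.03 for Sst. The level of Vip, made by interneurons that inhibit other interneurons, was -2.69, -2.57 and -2.29 in brainstem and 0.57, 0.59 and 0.69 in cortex. Of 22 brainstem, sensory and visceral peptides, 15 were called higher and 4 lower, where 19.0% and 16.6% of all genes were. In the whole neuropeptide list, 3 of 39 tested members were detected on all arrays of 1 region and 0 of the other and had to differ. Bounds were at least 15.9-fold for Uts2b, at least 8.29-fold for Calcb and at least 5.08-fold for Nmu, and Calca, which encodes the calcitonin gene related peptide of motor and parabrachial neurons, had levels of 1.54, 1.43 and 1.29 in brainstem and -2.34, -2.38 and -2.70 in cortex. Gal, the galanin precursor, differed by 2.90 ± 0.23 and Ucn, the urocortin of the Edinger-Westphal nucleus, by 2.17 ± 0.46. Lower in this role were -1.01 for Penk and -0.64 for Grp and 2 others, and Tac1 was not called (-0.35 ± 0.19). Kiss1, at -2.44 ± 0.29, was the only hypothalamic peptide called lower. Leaving out an array ended the call of Penk without brainstem replicate 1 or cortex replicate 3 (difference -0.94 to -0.90).

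Potassium channels had members at both ends of the distribution. 19 of 65 tested members were called higher and 24 lower, with a median of -0.17. Of 17 silent subunits and other voltage-gated channels tested, 10 were called lower and 4 higher. Lower were -5.36 for Kcnh3, -2.80 for Kcnq5, -2.42 for Kcnf1, -2.40 for Kcns1, -2.07 for Kcnh1 and -1.76 for Kcnh7. Kcnv1, a silent subunit, was at least 14.2-fold lower with no brainstem array above background. Higher in the same role were 2.98 for Kcng4, 1.92 for Kcnh8, 1.55 for Kcnh2 and 0.77 for Kcns3. For the Kv3 channels, known from fast-spiking neurons, the difference was 0.79 for Kcnc1 and 0.61 for Kcnc2, while Kcnc4 (-0.15 ± 0.20) was not called and a further Kcnc1 probe gave -0.82. For the channels next to nodes of Ranvier it was 0.78 for Kcna1 and 0.39 for Kcna2. Kcnj10, the inward rectifier of astrocytes and oligodendrocytes, had levels of 5.47, 5.50 and 5.16 in brainstem and 3.86, 3.83 and 3.91 in cortex. Tandem-pore and calcium-activated channels were lower in 6 of 15, led by -2.11 for Kcnmb4, -1.55 for Kcnt2 and -1.21 for Kcnk2. The call did not hold for Kcnc1 without brainstem replicate 3 or cortex replicate 2 (difference 0.58 to 0.64) and Kcna2 without brainstem replicate 1 or cortex replicate 3 (difference 0.30 to 0.34).

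Calcium channel genes were lower more often than higher. Of 14 tested, 9 were called lower and 3 higher. The difference was -1.88 for Cacnb3, -1.57 for Cacnb1, -1.54 for Cacna1d, -1.21 for Cacna1i (above background on 2 of 3 brainstem arrays) and -1.15 for Cacna1e (above background on 1 of 3 brainstem arrays) and 1.38 for Cacna2d2 and 0.78 for Cacna1g. The T-type channels therefore went apart, Cacna1g higher and Cacna1i and Cacna1h (-0.77) lower. The sodium channel Scn2a of forebrain axons was lower (-0.70 ± 0.10), and Scn1a (0.38 ± 0.15) and Scn8a (-0.24 ± 0.10) were not called. Pacemaker channels Hcn2 and Hcn4 were higher by 1.37 ± 0.18 and 1.04 ± 0.16. Under the replicate block, Scn1a was called (limma adjusted p = 0.0275).

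The release machinery showed exchanges between paralogues. Of 12 pairs of a form held to be typical of cortex and one held to be typical of brainstem, 9 had both members tested, and 4 were called in opposite directions: Slc17a7 with Slc17a6, Syt1 with Syt2, Vamp2 with Vamp1 and Cplx2 with Cplx1. Vamp1, the vesicle protein of motor and fast-conducting neurons, had levels of 5.21, 4.94 and 5.04 in brainstem and 2.91, 2.59 and 2.50 in cortex, and Vamp2, its forebrain relative, 3.85, 4.04 and 4.04 in brainstem and 4.86, 4.81 and 4.97 in cortex. Their differences were 2.40 ± 0.13 and -0.90 ± 0.10. The calcium sensors Syt2 and Syt1 differed by 1.55 ± 0.20 and -0.98 ± 0.12, and the complexins Cplx1 and Cplx2 by 0.49 ± 0.10 and -1.55 ± 0.16. Each of these 4 pairs thus had a member lower and a member higher in brainstem. Of the remaining tested pairs, Sncg was higher (3.97 ± 0.17) while Sncb was not called (-0.37 ± 0.18), Hcn2 and Chrm2 were higher while Chrm1 was not called, Kcnc1 and Kcnc2 were both higher, and Gabra2 was not called. Other lower genes of release were -3.30 for Stx1a, -2.50 for Cplx3, -1.87 for Sv2b, -1.51 for Unc13b and -1.31 for Rims1, where Stx1a is a syntaxin of the fusion complex, and other higher ones 1.90 for Syt9, 1.56 for Unc13c and 0.95 for Rims3. Snap25, a core member of the complex, was not called (0.19 ± 0.28). With the replicate number as a block, Chrm1 was called (limma adjusted p = 0.0275).

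Neurofilament genes, whose products fill large axons, were all higher. The level of Nefh, the heavy chain, was 4.41, 4.39 and 4.56 in brainstem and 1.75, 1.52 and 1.82 in cortex, and the difference was 3.26 for Prph, 2.76 for Nefh, 1.87 for Nefm and 1.41 for Nefl. Prph, peripherin, marks motor and sensory neurons with axons in nerves. The other cytoskeletal genes were mostly not called, with 7 higher and 3 lower of 25. Ank1, an ankyrin, was higher by 1.66 ± 0.13 and the dendritic Map2 lower (-0.63 ± 0.10.) The general neuronal genes Mapt (-0.02), Thy1 (-0.18) and Stmn2 (0.21) were not called.

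Signalling between cells and guidance gave moderate differences. Of 16 retinoid genes, 6 were called lower and 2 higher. The synthetic enzymes of retinoic acid divided: Aldh1a1, present in midbrain dopaminergic neurons, was higher with levels of 5.08, 4.86 and 4.83 in brainstem and 2.79, 2.37 and 2.90 in cortex, Aldh1a3 was lower (-1.65 ± 0.27), and Aldh1a2 was not called (0.31 ± 0.25). Cyp26b1, which degrades retinoic acid, was higher by 1.37 ± 0.18. Eph receptors and ephrins were called lower in 9 of 19 and higher in 3, led by -1.47 for Efnb2, -1.31 for Ephb3 and -1.15 for Ephb6 and by 1.998 for Epha1 and 0.82 for Efnb3. Semaphorins and their receptors gave -2.41 for Plxnd1, -1.64 for Sema3a and -1.17 for Plxna2 at one end and 0.99 for Sema5a, 0.95 for Sema4g and 0.91 for Sema6a at the other. Of 14 classical cadherins only Cdh20 was called, at 0.78 ± 0.13, a share below the background of 19.0%.

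Oligodendrocyte and myelin genes were higher almost throughout. 28 of 29 tested members were called higher and 0 lower, with a median difference of 1.15, and the mean level of the list was 3.06, 3.08 and 2.98 in brainstem and 1.75, 1.70 and 1.82 in cortex. Mog, on the surface of the myelin sheath, had levels of 1.01, 1.21 and 0.90 in brainstem and -0.76, -0.72 and -0.72 in cortex and was 3.42-fold higher. Mbp, the myelin basic protein, had levels of 6.73, 6.97 and 7.02 in brainstem and 6.03, 5.94 and 6.50 in cortex and was 1.68-fold higher, the smallest difference among the 10 myelin proteins. The differences of myelin proteins included 1.77 for Mog, 1.49 for Mag, 1.48 for Mobp, 1.41 for Pmp22, 1.16 for Opalin, 1.14 for Mal, 1.13 for Cldn11, 0.95 for Cnp and 0.75 for Mbp. A further Mbp probe gave -0.99, so the probes of this gene disagree in direction. The largest in the list was Hapln2, which binds the matrix at nodes of Ranvier, at 2.54 ± 0.27, followed by 2.03 for Trf, 1.92 for Gjb1, 1.68 for Ugt8a and 1.67 for Aspa. The lineage factors Olig1, Olig2 and Sox10 differed by 0.94, 0.80 and 1.05, all called, and Enpp2 was the only member not called (0.10 ± 0.58). Of 8 precursor markers, Bcas1 and Lhfpl3 were called higher (1.43 and 1.11), and Pdgfra (-0.09), Cspg4 (0.19) and Gpr17 (-0.06) were not. Cholesterol synthesis, which supplies myelin, had 12 of 22 members called higher and 1 lower, with 0.998 for Hsd17b7, 0.86 for Insig1 and 0.67 for Fdps. With an array left out, the call was lost for Mbp without cortex replicates 1 or 2 (difference 0.64 to 0.69).

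Astrocyte genes were higher in part and split by regional type. Of 17 general astrocyte genes, 12 were called higher and 0 lower. The difference was 1.63 for Aqp4, 1.62 for Slc4a4, 1.16 for S100b, 1.07 for Atp1b2 and 1.05 for Gfap, where Gfap is the intermediate filament and Aqp4 the water channel of astrocytes. The median difference of these 17 genes was 0.55. Those not called included 0.03 for Aldh1l1, -0.09 for Sox9 and 0.32 for Gja1, and Aldoc was higher by 0.43 ± 0.10. Among 13 genes reported to vary between astrocytes of different regions, 6 were called higher and 6 lower. The level of Agt, angiotensinogen, was 5.03, 4.78 and 4.95 in brainstem and 1.85, 1.38 and 1.78 in cortex, and of Chrdl1, an antagonist of bone morphogenetic proteins, -4.29, -4.07 and -3.98 in brainstem and -0.12, -0.13 and 0.14 in cortex. These were 9.55-fold higher and 16.9-fold lower. Sparc and Itih3 were higher by 2.51 ± 0.13 and 2.19 ± 0.15, and Mfge8 lower (-1.45 ± 0.14.)

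Microglial genes were lower or not called. Of 16 markers, 8 were called lower and 0 higher, with a median of -0.44. The difference was -0.95 for Fcrls, -0.94 for P2ry12, -0.67 for Aif1, -0.63 for Tmem119 and -0.59 for Trem2, and Cx3cr1 (-0.09) and Ctss (-0.11) were not called. All 16 differences were below 0, and none reached 2-fold. Endothelial and mural genes were called higher in 3 of 16, close to the 19.0% of all genes, and 0 reached 2-fold. The called members included 0.72 for Abcc9 and 0.57 for Rgs5. Among the 13 not called were 0.39 for Cldn5 and 0.39 for Pecam1. Meningeal genes gave 0.95 for Col1a2, 0.93 for Dcn and 0.83 for Col3a1 and Islr lower (-0.62 ± 0.14.) Leaving out an array ended the call of Col3a1 without brainstem replicate 2 or cortex replicates 1 or 3 (difference 0.66 to 0.79). In the fit blocked by replicate number, Cldn5 was called (limma adjusted p = 0.0265).

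Choroid plexus transcripts varied between arrays. By limma, 0 of 14 members were called in either direction, and 0 were lower and 1 higher at an unadjusted p under 0.05. The median difference was -1.51, and -0.97 with normexp. The mean level of the list was -3.36, -3.44 and -1.91 in brainstem and -2.25, -1.27 and -1.36 in cortex, so brainstem replicate 3 lay among the cortex arrays. Without that array the median was -1.87. The level of Folr1, a folate receptor of choroid epithelium, was -2.80, -2.60 and -1.16 in brainstem and -1.02, 0.33 and 0.01 in cortex. Ependymal and ciliary genes, from the lining of the ventricles, were called higher in 6 of 10, with 1.48 for Foxj1, 1.42 for Tmem212, 1.31 for Ak7 and 1.21 for Ccdc153. Of 4 haemoglobin and red cell genes, 0 were called, and 0 were higher and 0 lower at an unadjusted p under 0.05. The part of choroid plexus and ventricle lining in other results was not tested. The call did not hold for Ak7 without brainstem replicates 1 or 2 or cortex replicate 1 (difference 1.20 to 1.30).

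Markers of neighbouring regions also differed between the samples. Whether the samples held tissue of those regions was not tested. Of 13 thalamic and habenular markers, 12 were called higher in the brainstem samples and 1 lower, with mean levels from -0.07 to 0.04 in the brainstem arrays and -2.34 to -2.16 in the cortex arrays. Tcf7l2, a factor of thalamic neurons, had levels of 2.42, 2.61 and 2.64 in brainstem and -0.90, -0.95 and -0.65 in cortex, and Gbx2 of -0.85, -0.77 and -0.99 in brainstem and -5.05, -5.01 and -4.94 in cortex. Gpr151, a receptor of habenular neurons, was at least 7.04-fold higher, and Prkcd, a kinase of thalamic relay neurons, differed by 3.65 ± 0.21. Of 10 hypothalamic and pituitary markers, 7 were called higher and 0 lower, with mean levels from -0.31 to -0.02 in the brainstem arrays and -3.79 to -3.18 in the cortex arrays. The level of Oxt, the oxytocin precursor, was 2.30, 3.11 and 2.23 in brainstem and -2.02, -3.14 and -3.13 in cortex, and of Avp, the vasopressin precursor, 2.26, 3.14 and 2.18 in brainstem and -0.56, -2.43 and -3.06 in cortex. Both were highest in brainstem replicate 2 and, within cortex, in replicate 1.

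Cerebellar markers were called higher in 13 of 20 and lower in 3, with mean levels from -0.32 to -0.06 in the brainstem arrays and -1.37 to -1.22 in the cortex arrays. The level of Gabra6 was -3.61, -2.61 and -2.28 in brainstem and -8.85, -7.66 and -7.54 in cortex and that of Cbln3, another granule cell gene, -6.03, -5.57 and -5.21 in brainstem and -7.61, -8.10 and -8.996 in cortex, neither well above background in cortex. With normexp background correction, Cbln3 (0.15) was not called. Pcp2, a Purkinje cell gene, had levels of -1.51, -0.77 and -0.28 in brainstem and -2.37, -2.17 and -1.50 in cortex, with the highest value of each region in replicate 3. For Pcp2 the highest cortex array lay just above the lowest brainstem array, so the groups overlapped. With the 6 wild-type arrays alone, Pcp2 was not called (limma adjusted p = 0.0546). Striatal markers were called lower in 10 of 13 and higher in 0, with mean levels from -1.52 to -1.39 in the brainstem arrays and -0.07 to 0.10 in the cortex arrays. Rgs9, a regulator of G protein signalling in striatal neurons, had levels of -0.82, -0.53 and -0.60 in brainstem and 1.51, 1.51 and 1.80 in cortex, and the difference was -3.51 for Drd1, -2.25 for Rgs9 and -0.66 for Adora2a. Hippocampal markers divided, 3 higher and 7 lower of 15, with Spink8 at -2.16 ± 0.40 and C1ql2 at 1.91 ± 0.32. The part of these regions in the differences of transcription factors, transmitters and peptides was not tested.

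**Figure D5:**
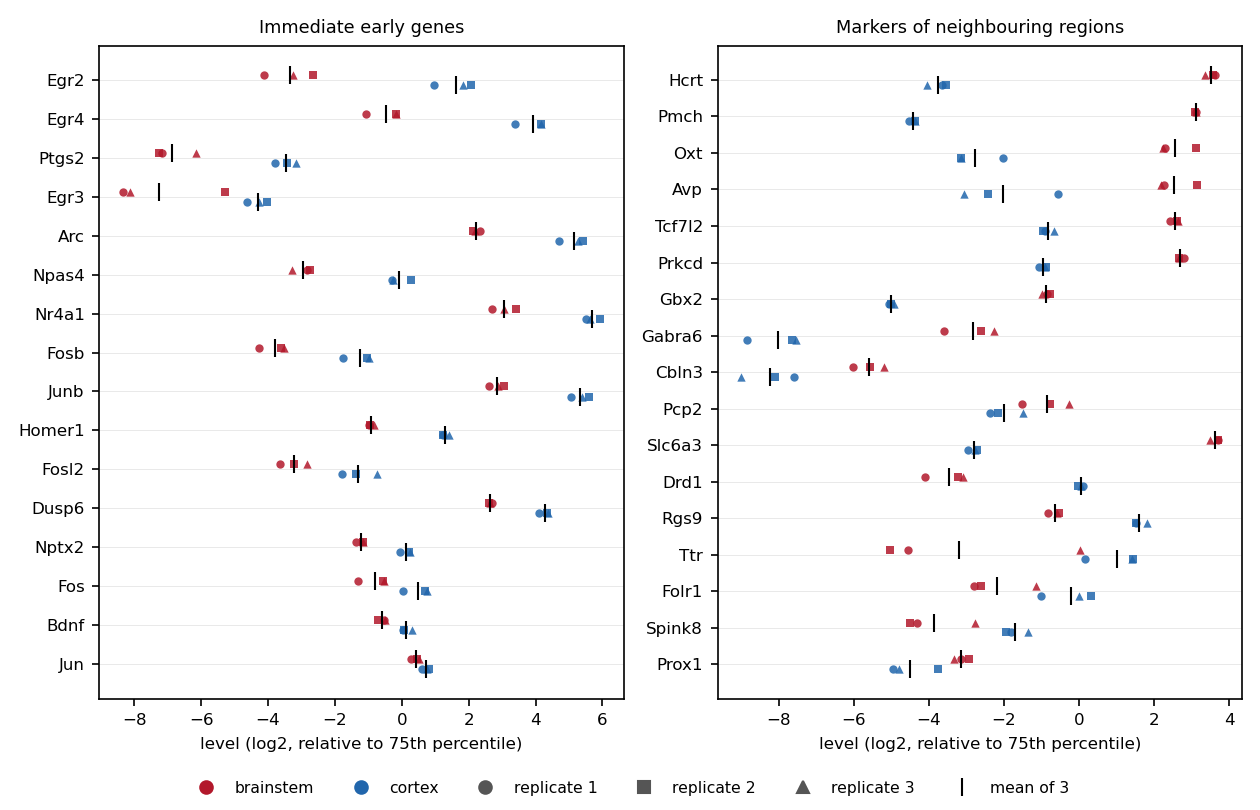
Levels (x axis, log2 relative to the 75th percentile of the array) of 16 immediate early genes and of 17 markers of neighbouring regions on each wild-type array, brainstem in red and cortex in blue, with a symbol per replicate and a black tick at the mean of 3. Every immediate early gene shown has a lower mean in brainstem. Ttr and Folr1 lie higher in brainstem replicate 3 than in replicates 1 and 2.

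The gene on which the series was built showed no called regional difference. The level of Nfe2l2 was 1.06, 1.25 and 1.35 in brainstem and 0.76, 0.81 and 0.98 in cortex, and its difference of 0.37 ± 0.54 was not called (adjusted p = 0.63). The spread of this fit includes the knockout arrays, whose Nfe2l2 levels ran from -8.42 to -4.97 in these regions. With the 6 wild-type arrays alone it was 0.37 and was called by limma. Of 41 Nrf2 partners and target genes tested, 18 were called higher and 1 lower, with a median of 0.31. Those called higher included genes of glutathione synthesis and of the pentose phosphate pathway, with 1.05 for Gss, 1.005 for G6pdx, 0.97 for Gclm and 0.68 for Gclc. The level of Gss, glutathione synthetase, was 1.22, 1.17 and 1.25 in brainstem and 0.10, 0.17 and 0.21 in cortex, without overlap. Nqo1, a quinone reductase, was higher by 0.65 ± 0.16 and Hmox1, haem oxygenase, by 0.49 ± 0.11. The repressor Keap1 (0.18) and the glutathione transferase Gstm1 (-0.07) were not called.

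Housekeeping families differed less. Nuclear genes of oxidative phosphorylation were called higher in 13 of 40 and lower in 1, with differences from -0.39 to 0.59, so none reached 2-fold. The largest was Ndufv2, a complex I subunit, at 0.59 ± 0.11. Interferon and class I genes were called higher in 6 of 16, with Oas1a, an antiviral sensor, at 0.63 ± 0.18. Families grouped by gene symbol after the values were seen were read against the same shares, 19.0% higher and 16.6% lower. Of 80 cytoplasmic ribosomal protein genes, 4 (5%) were called higher and 7 (8.75%) lower, both below the shares of all genes. Of 78 mitochondrial ones, 14 (17.9%) were called higher, close to the share of all genes, and 0 lower. Zinc finger genes named Zfp were called in 49 of 315 higher and 47 lower, close to the shares of all genes. Solute carriers leaned to brainstem, with 97 of 297 higher and 33 lower. Genes of intracellular signalling leaned to cortex: of 23 Prkc and Camk kinase genes 13 were lower and 4 higher, of 10 adenylyl cyclases 5 and 1, and of 21 phosphodiesterases 8 and 3. The cerebellin and C1q-like genes, secreted organisers of synapses, went the other way, with 5 of 7 higher and only C1ql3 (-1.86 ± 0.16) lower.

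The same regions of knockout mice gave a second set of 6 arrays. The wild-type comparison used them only for the shared spread, the filter on detected probes and the choice of the brightest probe. Of the 8088 genes called in wild type, 8066 had the same sign in the knockout arrays. Of 2921 called with at least 2-fold, 2911 had the same sign and 2751 were also called there. The knockout difference was 3.26 for Slc17a6, -3.74 for Slc17a7, -4.54 for Kcnh3, -4.09 for Egr2, 1.86 for Mog and 7.05 for Hcrt. The slides of the knockout arrays were those of the wild-type arrays, with the same separation of the regions. By limma, 0 of 22671 genes (0%) had a regional difference that differed between the genotypes at an adjusted p under 0.05. An unadjusted p under 0.05 was found for 200, a smaller share than that threshold passes when no gene differs.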

How the data were processed

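RNA was measured on 1-colour Agilent mouse arrays. Per the file headers, the deposited intensity of each spot (gProcessedSignal) was background-subtracted and detrended within its array by Agilent Feature Extraction, with no scaling between arrays. Intensities of 41174 probes were averaged over spots without outlier flags, turned to log2 and reduced by the 75th percentile of their array, which was 742 to 1130. A probe detected above background on every array of some group was kept, 30066 in all, and the brightest probe stood for a gene. Symbols came from RefSeq, matched by the transcript accession of each probe, and an accession matching more than 1 gene got none. Of the 22671 genes tested, 14825 had a symbol. limma 3.58.1 in R 4.3.3 was fitted to all 18 arrays with a mean per group (12 residual and 2.33 prior degrees of freedom). Simulated data used the spread of the fit to all 18 arrays and 1 mean per gene across groups. The fit recovered 26.9% of 67, 62.7% of 67 and 95.5% of 66 genes changed by 0.5, 1 and 2 on the log2 scale, with 8 false calls. Far fewer genes changed there than the 8088 called here, so these rates do not carry over to this comparison.

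Lower bounds of a fold used, for the dim group, the higher of the lowest signal among probes well above background and the dim probe's own signal on each array. Gene lists, pairs and members were chosen with earlier results of these data known. The genes named were the 12 extremes above background on all 6 arrays, the 10 largest bounds in each direction, Nfe2l2, listed pairs, and members of each list by size of difference with their close relatives. The deviations of wild-type brainstem and cortex arrays with the same replicate number correlated across genes with r of 0.381, 0.477 and 0.711. By the rule set beforehand, that every such r exceeds 0.1, this counts as pairing, although the labels do not state it. Replicates 1 and 2 also correlated across numbers, with r of 0.23 and 0.246, and differently numbered pairs with replicate 3 had r from -0.559 to -0.424. Since replicates 1 and 2 shared a slide in each region, the rule cannot tell pairing by mouse from a pattern of slides. The deposited table of the series, also intensity, equalled the array of its column name in 11 of 18 columns to within 0.6%, among them the 6 compared here, and another array in 7. It served as an alternative only. Alternatives to background correction, scaling, probe filter, samples, probes per gene, moderation, replicate number and slide were run. Some listed genes are counted within their lists and are not reported here by name.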

Additional observations from a re-analysis of the deposited data

How the results depend on the processing

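Results were recomputed under 17 alternatives, and the number of genes called in either direction ran from 6596 to 9498, against 8088. With normexp background correction, the genes called with at least 2-fold fell to 591 higher and 861 lower, from 1475 and 1446. Since the arrays held no mean spot signal, normexp was run on the median signal. Of the 8088 calls, 98 changed sign with normexp and 55 with the mean of all probes of a gene, and 0 did under the other alternatives. With the replicate number as a block (replicate block), 9498 genes were called, including 7931 of the 8088, and the calls of 9 named genes changed, given beside their values. With the slide as a random block (correlation 0.253), 6923 were called, and 6743 with the authors' deposited table. Without 1 of the 6 arrays, 6596 to 7519 were called. The test of the regional difference between genotypes gave 1 call with quantile normalization and 0 otherwise, with 81 to 401 genes at an unadjusted p under 0.05. The median of GABA signalling genes, 0.05, was -0.0638 with only probes above background on all 6 arrays and ran from -0.0129 without cortex replicate 3 to 0.1105 without cortex replicate 2. Hoxa3 turned from -0.37 to 1.27 with the mean of all its probes. Of 333 named genes called, 280 kept direction and call under every alternative and 53 lost the call in at least 1. The cause of these changes was not tested. With the 95th percentile of dim probes as the floor, all 356 bounds still exceeded 1, and that of Hoxb5 was 204-fold. Of 2188 called genes with a further probe, 1929 had the same sign in every probe. Signal over background limits the low genes: single genes undetected in a region have only bounds, and list medians that rest on them move with the background correction. With normexp and with only probes above background on all 6 arrays, the medians of Hox genes (4.57) were 1.06 and 0.74, of hindbrain and midbrain factors (1.93) 0.58 and 1.20, and of acetylcholine genes (1.03) 0.02 and 0.10.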
